A study of Homo sapiens with 24 samples.

Results

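Claudins and their tight junction partners were followed through the genes CLDN1, CLDN2, CLDN3, CLDN4, CLDN7, CLDN12, OCLN, TJP1 and F11R, chosen by name and read from every array reporter annotated to them. These are 9 of the 27274 gene names on the array, and they have 12 of its 34127 reporters. The cells were 1 clone of HCT-116, a human colorectal carcinoma line, that carried a stably integrated Tet repressor and a doxycycline-inducible DN-Tcf4, a dominant negative form of the Wnt effector Tcf4 (gene TCF7L2). All 4 treatments were of this clone, so the untreated cells carried the DN-Tcf4 construct too, and no parental or empty-vector cells are among the arrays. Cells were left untreated (Ctl) or received 5 mM sodium butyrate (NaB), 4 µg/ml doxycycline (Doxy) or both agents (DoxyNaB), each in 6 numbered experiments, which gives 24 arrays. By the paper's methods doxycycline was given first, and the cotreatment with or without butyrate then lasted 17.5 hr. How long doxycycline was given before it is not stated.

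Tight junctions seal the space between epithelial cells and set which ions pass between them. Claudins are membrane proteins that form the strands: some tighten the barrier, while others such as claudin-2 form cation pores. Occludin and the junctional adhesion molecule JAM-A (F11R) lie beside them in the membrane, and the plaque protein ZO-1 (TJP1) ties them to actin. In colorectal cancer, claudin levels are often altered, and several claudin genes have been described as Wnt-responsive. The comparisons ask how butyrate, a fermentation product in the colon that inhibits histone deacetylases and raises Wnt activity in such cells, moved these mRNAs, and whether induction of DN-Tcf4 altered that response.

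Each value is a level, that is, a reporter's processed signal divided by the 75th percentile of its array, on the log2 scale. Levels serve to compare treatments for 1 reporter and not to rank genes. A reporter entered the tests if at least 1 treatment had it well above background on each of its 6 arrays, as held for 18983. So did 10 of the 12 member reporters, which cover 8 of the 9 genes; CLDN1 was described only. Changes were fitted in limma, blocked by experiment, and passed at an adjusted p under 0.01 over all 18983 reporters. A gene with more than 1 tested reporter was represented by the brighter one. A bulk array cannot tell fewer cells with a transcript from less of it per cell.

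The 75th percentile signal lay between 380.2 and 1323, and 52.7% to 88.1% of spots were well above background. The 12 arrays of experiments 2 to 4, scanned together, had the highest shares (78.4% to 88.1%), against 52.7% to 62.6% in the other arrays. Experiment 1 was on 2 slides with separate scans, 1 for the arrays with butyrate and 1 for those without, so within it an effect of butyrate cannot be told apart from one of the slide. In experiments 2 to 4, negative control spots read 69.6 to 311.0 signal units on arrays with butyrate and 64.3 to 82.0 on arrays without. Of the 8 epithelial and colon markers, 7 were tested, KRT8, KRT18, KRT19, CDH1 and CDX2 among them, while VIL1 was detected this way on 5 arrays only. As for the labels, 1 of the 3 TCF7L2 reporters had a DoxyNaB/NaB ratio of 21.9 (adjusted p = 1.77e-06), a second one of 7.80, and the third one of 0.419. The first of these also rose 3.74-fold in NaB/Ctl (adjusted p = 4.68e-04, 6 of 6 experiments), where the others had ratios of 1.88 (adjusted p = 0.0294) and 0.945 (adjusted p = 0.777). None of them passed in Doxy/Ctl (adjusted p 0.619 to 0.921). AXIN2, a Wnt feedback gene, fell by 2.53 in DoxyNaB/NaB and by 0.58 in Doxy/Ctl (log2; adjusted p = 2.64e-11 and 0.00290).

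In butyrate alone (NaB/Ctl), CLDN7 and TJP1 fell and CLDN12 and F11R rose, while CLDN2, CLDN3, CLDN4 and OCLN did not pass. Of all reporters, 40.0% passed higher and 28.2% lower in this comparison, so 2 of 8 genes in each direction is no more than the array as a whole gave. With a fold change over 2 as well, CLDN7 alone of the 8 passed, against 31.7% of all reporters. In the presence of doxycycline (DoxyNaB/Doxy), CLDN4, CLDN12 and F11R rose and CLDN3, CLDN7 and TJP1 fell; the shares over all reporters were 37.3% higher and 29.7% lower. CLDN2 was lower too, by more than 2-fold, as 30.6% of all reporters changed in either direction, but it entered the tests only through the Doxy arrays, where it was high, so its value is given as a description. With CLDN2 among them, the median log2 change of the 8 genes was -0.07 in NaB/Ctl and -0.35 in DoxyNaB/Doxy, beside 0.17 and 0.10 over all reporters. Of all reporters that passed, 58.7% were higher in NaB/Ctl and 55.6% in DoxyNaB/Doxy, but scaling to the array median after a floor of 5 signal units, a joint change of both called median scaling from here on, lowered the median change of all reporters by 0.73 and 0.54 (log2) and the shares to 22.5% and 26.9%. Under median scaling 0 members passed higher and 5 lower in each of these comparisons. Of all 18983 reporters, 2502 then passed higher and 8599 lower in NaB/Ctl. In DoxyNaB/Doxy 2728 passed higher and 7425 lower.

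**Figure D1:**
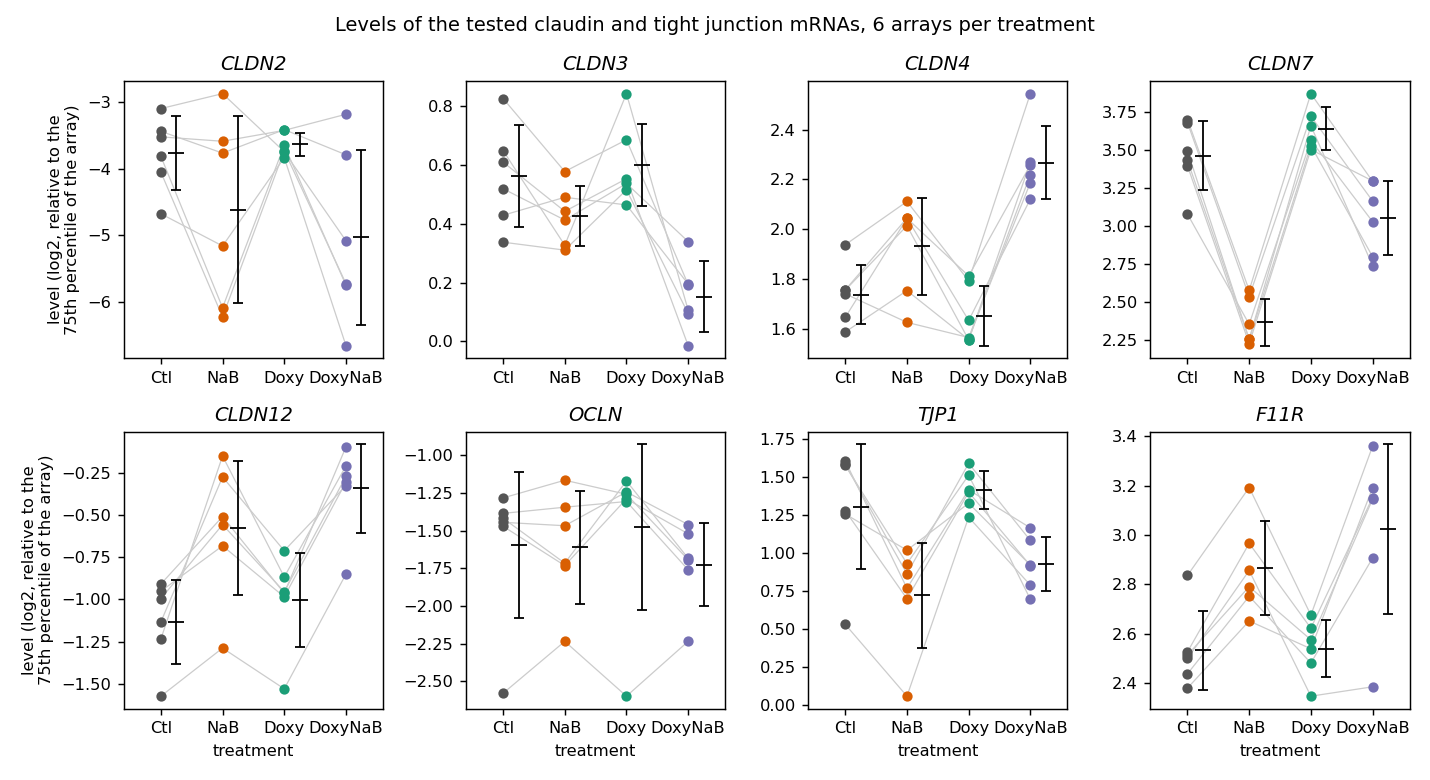
Levels (log2, relative to the 75th percentile of the array; the vertical axes differ) of the 8 tested genes in the 4 treatments; each point is 1 array, grey lines join the arrays of an experiment, and black marks give the mean and SD of 6 arrays. CLDN7 is lowest in NaB, with DoxyNaB between NaB and the arrays without butyrate, and CLDN4 is highest in DoxyNaB.

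CLDN7 encodes claudin-7, which in colonocytes lines the basolateral membrane as well as the tight junction. Its reporter on chr17:7104546-7104710 (NCBI36, minus strand) is 60 bases long but covers 165 bases of the genome, so it crosses a splice junction; 1 sense reading frame is open throughout. It is shown because the NaB/Ctl change with the smallest p among the members rests on it.
CLDN7 reporter: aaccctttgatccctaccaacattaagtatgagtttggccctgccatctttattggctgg
The level of CLDN7 in Ctl ran from 3.08 over a median of 3.46 to 3.70. In NaB it ran from 2.23 (median 2.31) to 2.58. With doxycycline alone the 6 arrays lay between 3.50 and 3.87 (median 3.61). With both agents they lay between 2.74 and 3.30 (median 3.1). The NaB arrays were thus all below every other array, and the DoxyNaB arrays were above all NaB arrays and below all Doxy arrays. CLDN7 fell by 1.10 in NaB/Ctl (SE 0.09, 95% interval -1.27 to -0.92, adjusted p = 1.65e-09), which is 0.468 of the Ctl level, lower in 6 of 6 experiments. It fell by 0.59 in DoxyNaB/Doxy (SE 0.09, adjusted p = 5.99e-06), 0.666 of the Doxy level, again in 6 of 6. The NaB/Ctl change was -1.04 in experiments 2 to 4, -1.16 in experiments 5 and 6 and -1.12 in experiment 1. In DoxyNaB/Doxy the respective changes were -0.55 (adjusted p = 0.0148), -0.64 and -0.58.

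CLDN4 encodes a barrier-forming claudin that lies near CLDN3 on chromosome 7; its reporter is at chr7:72884843-72884902 (NCBI36, plus strand). Its level was 1.59 to 1.94 (median 1.75) in Ctl and 1.63 to 2.11 (median 2.03) in NaB. It was 1.56 to 1.81 (median 1.60) in Doxy and 2.12 to 2.54 (median 2.24) in DoxyNaB. Ctl and NaB overlapped, whereas every DoxyNaB array was above every other array. CLDN4 rose by 0.61 in DoxyNaB/Doxy (SE 0.07, 95% interval 0.47 to 0.76, adjusted p = 1.72e-07), which is 1.53-fold, higher in 6 of 6 experiments. In NaB/Ctl the change was 0.19 (SE 0.07, adjusted p = 0.0140), higher in 5 of 6. Without experiment 3 it was 0.26 and passed (adjusted p = 0.00383). It also passed with quantile normalization (0.43, adjusted p = 4.20e-05) and without the 2 arrays of highest negative controls (0.25, adjusted p = 0.00204). Median scaling turned the NaB/Ctl change to -0.54 and left 0.07 in DoxyNaB/Doxy, where the median reporter changed by -0.56 and -0.44. Within scans the DoxyNaB/Doxy change was 0.67 in experiments 2 to 4 and 0.47 (adjusted p = 0.0121) in experiments 5 and 6.

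CLDN3 encodes another barrier claudin (reporter chr7:72821263-72821322, NCBI36, minus strand). Its level was 0.34 to 0.83 (median 0.56) in Ctl, 0.31 to 0.58 (median 0.43) in NaB, 0.46 to 0.84 (median 0.54) in Doxy and -0.01 to 0.34 (median 0.15) in DoxyNaB. The DoxyNaB arrays were all below the Doxy arrays, and NaB and Ctl overlapped. CLDN3 fell by 0.45 in DoxyNaB/Doxy (SE 0.07, adjusted p = 2.94e-05), in 6 of 6 experiments. In NaB/Ctl the change was -0.14 (SE 0.07, adjusted p = 0.108), lower in 5 of 6. It passed with the 75th percentile taken over reporters rather than spots (-0.23, adjusted p = 0.00835). It also passed with median scaling (-0.87, adjusted p = 1.65e-04), where the median reporter changed by -0.56. Within scans the DoxyNaB/Doxy change was -0.32 (adjusted p = 0.0297) in experiments 2 to 4 and -0.49 (adjusted p = 0.0130) in experiments 5 and 6.

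CLDN12 encodes a claudin without the PDZ-binding tail that lets most claudins dock on ZO proteins. The level of its brighter reporter (chr7:89882877-89882936, NCBI36, plus strand) was -1.57 to -0.91 (median -1.06) in Ctl, -1.29 to -0.15 (median -0.53) in NaB, -1.53 to -0.71 (median -0.96) in Doxy and -0.85 to -0.10 (median -0.29) in DoxyNaB. Experiment 1 gave the lowest array of every treatment, and through it the groups overlapped. CLDN12 rose by 0.56 in NaB/Ctl (SE 0.09, adjusted p = 2.03e-05) and by 0.66 in DoxyNaB/Doxy (SE 0.09, adjusted p = 2.76e-06), in 6 of 6 experiments each. Median scaling gave -0.18 (adjusted p = 0.467) and 0.12 (adjusted p = 0.636), above the median reporter in both, and normexp correction gave 0.30 in NaB/Ctl (adjusted p = 0.0162). Within scans the NaB/Ctl change was 0.37 in experiments 2 to 4 and 0.97 in experiments 5 and 6, and both passed. The other reporter (chr7:89880414-89880473) was well above background on 5 of 6 arrays of each treatment and was not tested.

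CLDN2 encodes the cation pore claudin (reporter chrX:106060688-106060747, NCBI36, plus strand). It was dim, well above background on 5 Ctl, 3 NaB, 6 Doxy and 2 DoxyNaB arrays. Its level was -4.68 to -3.09 (median -3.67) in Ctl, -6.23 to -2.87 (median -4.46) in NaB, -3.83 to -3.41 (median -3.69) in Doxy and -6.66 to -3.18 (median -5.40) in DoxyNaB. Doxy arrays lay close together, while the arrays with butyrate spread widely and overlapped them. The difference in DoxyNaB/Doxy was -1.40 (SE 0.41, 95% interval -2.26 to -0.54, adjusted p = 0.00492), lower in 5 of 6 experiments. Since Doxy was the only treatment through which CLDN2 entered the tests, this value is given as a description. In NaB/Ctl the change was -0.85 (adjusted p = 0.0674), lower in 5 of 6. It was past the threshold with quantile normalization (-1.92, adjusted p = 6.01e-07), with median scaling (-1.58, adjusted p = 4.22e-05) and without the 2 arrays of highest negative controls (-1.15, adjusted p = 0.00728), and it was -0.056 in experiments 2 to 4 and -1.33 (adjusted p = 0.0414) in experiments 5 and 6. The DoxyNaB/Doxy value depends on how background was subtracted: with normexp correction the change was 0.14 (adjusted p = 0.661). It was also short of the threshold without experiment 1, 5 or 6 (adjusted p 0.0181 to 0.0385), and it was -0.49 (adjusted p = 0.346) in experiments 2 to 4 and -2.41 (adjusted p = 0.00449) in experiments 5 and 6.

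CLDN1, a claudin that seals the epidermal barrier, was well above background on 1 Ctl, 5 NaB, 2 Doxy and 4 DoxyNaB arrays, so it was not tested (chr3:191506695-191506754, NCBI36, minus strand). Its level was -7.73 to -4.93 (median -6.70) in Ctl, -5.10 to -2.09 (median -3.46) in NaB, -7.20 to -4.04 (median -6.58) in Doxy and -4.81 to -1.82 (median -4.29) in DoxyNaB. It was higher with butyrate in 6 of 6 experiments, both without and with doxycycline, though the groups overlapped. With no filter on dim reporters the change was 3.03 (adjusted p = 5.93e-06) in NaB/Ctl and 2.32 (adjusted p = 1.17e-04) in DoxyNaB/Doxy. With normexp correction as well, these were 0.71 (adjusted p = 0.240) and 1.10 (adjusted p = 0.0355), so the size of the CLDN1 difference rests on the background subtracted.

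OCLN encodes occludin. The level of its brighter reporter (chr5:68885271-68885330, NCBI36, plus strand) was -2.58 to -1.28 (median -1.43) in Ctl, -2.24 to -1.16 (median -1.59) in NaB, -2.60 to -1.17 (median -1.27) in Doxy and -2.23 to -1.46 (median -1.69) in DoxyNaB. All 4 treatments overlapped, and experiment 1 was lowest in each. The NaB/Ctl change was -0.01 (95% interval -0.25 to 0.22, adjusted p = 0.919), and the DoxyNaB/Doxy change was -0.25 (95% interval -0.48 to -0.01, adjusted p = 0.0521). Without experiment 1 the latter was -0.37 and passed (adjusted p = 0.00303). A second reporter (chr5:68883142-68885185) covers 2044 bases of the genome and so crosses a splice junction, with 1 open sense frame; it is shown because the pair of occludin reporters differ.
OCLN second reporter: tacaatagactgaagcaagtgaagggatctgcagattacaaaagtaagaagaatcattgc
It gave 0.66 (95% interval -0.04 to 1.37, adjusted p = 0.0798) in NaB/Ctl and -0.11 (adjusted p = 0.773) in DoxyNaB/Doxy, and its Ctl arrays spread from -5.59 to -1.62. In NaB/Ctl experiment 5 alone gave 2.71, through the lowest of these Ctl arrays, and the other 5 experiments gave 0.061 to 0.41 (mean 0.26).

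F11R encodes JAM-A, an immunoglobulin-like adhesion molecule of the tight junction. The level of its brighter reporter (chr1:159232657-159232716, NCBI36, minus strand) was 2.38 to 2.84 (median 2.51) in Ctl, 2.65 to 3.19 (median 2.82) in NaB, 2.35 to 2.68 (median 2.56) in Doxy and 2.39 to 3.36 (median 3.15) in DoxyNaB. Butyrate arrays were the higher of each pair in 6 of 6 experiments, with and without doxycycline, while the groups overlapped. F11R rose by 0.34 in NaB/Ctl (SE 0.10, adjusted p = 0.00404) and by 0.48 in DoxyNaB/Doxy (SE 0.10, adjusted p = 1.81e-04). The NaB/Ctl call was lost without experiment 1, 3, 4 or 5 (adjusted p 0.0116 to 0.0224) and within each scan (0.32 and 0.36, adjusted p = 0.0992 and 0.0375), and median scaling turned both changes, to -0.40 and -0.058, still above the median reporter (-0.56 and -0.44). The NaB/Ctl call was also lost with no replicate block (adjusted p = 0.0271) and with no filter (adjusted p = 0.0102). With the 75th percentile taken over reporters the NaB/Ctl change was 0.24 (adjusted p = 0.0551). With normexp correction the NaB/Ctl change was 0.43 (adjusted p = 0.0132) and the DoxyNaB/Doxy change was 0.40 (adjusted p = 0.0178). Within scans the DoxyNaB/Doxy change was 0.34 (adjusted p = 0.0796) in experiments 2 to 4 and 0.59 (adjusted p = 0.00564) in experiments 5 and 6. The second F11R reporter (chr1:159234574-159234633) rose by 0.77 (adjusted p = 3.88e-06) and by 0.75 (adjusted p = 5.65e-06).

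TJP1 encodes ZO-1, the scaffold that binds claudin tails and actin (reporter chr15:27779819-27779878, NCBI36, minus strand). Its level was 0.53 to 1.61 (median 1.43) in Ctl, 0.06 to 1.02 (median 0.82) in NaB, 1.24 to 1.59 (median 1.41) in Doxy and 0.70 to 1.17 (median 0.92) in DoxyNaB. All DoxyNaB arrays were below all Doxy arrays, and NaB overlapped Ctl only through the Ctl array of experiment 1. TJP1 fell by 0.58 in NaB/Ctl (SE 0.12, adjusted p = 2.06e-04) and by 0.49 in DoxyNaB/Doxy (SE 0.12, adjusted p = 0.00111), in 6 of 6 experiments each. Within scans the NaB/Ctl change was -0.73 in experiments 2 to 4 and -0.41 (adjusted p = 0.0311) in experiments 5 and 6. In DoxyNaB/Doxy it was -0.52 (adjusted p = 0.00668) in experiments 2 to 4 and -0.45 (adjusted p = 0.0229) in experiments 5 and 6. The DoxyNaB/Doxy call was lost with quantile normalization (-0.32, adjusted p = 0.0107) and with no replicate block (adjusted p = 0.0138).

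Doxycycline without butyrate (Doxy/Ctl) moved no member past the threshold, against 0.500% of all reporters. By the methods' paired test 0 of the 8 had an unadjusted p under 0.01. Of the 18983 reporters, 696 were higher and 648 lower by that paired test. The changes lay between -0.08 (CLDN4) and 0.18 (CLDN7, adjusted p = 0.400, higher in 6 of 6 experiments). The median of the 8 was 0.11, beside 0.02 over all reporters. For 7 of the 8, CLDN7 excepted, the sign of so small a change turned under at least 1 of the alternatives.

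In butyrate-treated cells, doxycycline raised CLDN7 and CLDN4. This comparison, DoxyNaB/NaB, set cells with induced DN-Tcf4 against cells with butyrate alone. Of the 8 genes 2 passed higher and 0 lower, beside 0.616% and 1.87% of all reporters. By the methods' paired test 3 of the 8 had an unadjusted p under 0.01. Of the 18983 reporters, 306 were higher and 719 lower by that test. CLDN7 rose by 0.69 (SE 0.09, 95% interval 0.51 to 0.87, adjusted p = 4.69e-05), which is 1.61-fold, higher in 6 of 6 experiments (0.48 to 1.07). CLDN4 rose by 0.33 (SE 0.07, 95% interval 0.19 to 0.48, adjusted p = 0.00555), which is 1.26-fold, also in 6 of 6 (0.08 to 0.56). The other members did not pass: CLDN3 was closest, at -0.27 (adjusted p = 0.0422) and lower in 6 of 6. The CLDN4 call was lost without experiment 1, 2, 3, 4 or 6 (adjusted p 0.0117 to 0.0581), and with normexp correction CLDN7 gave 0.55 (adjusted p = 0.0238) and CLDN4 0.16 (adjusted p = 0.528). Within scans CLDN7 gave 0.74 (adjusted p = 0.137) in experiments 2 to 4 and 0.59 (adjusted p = 0.108) in experiments 5 and 6, and CLDN4 gave 0.43 (adjusted p = 0.188) and 0.15 (adjusted p = 0.591).

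**Figure D2:**
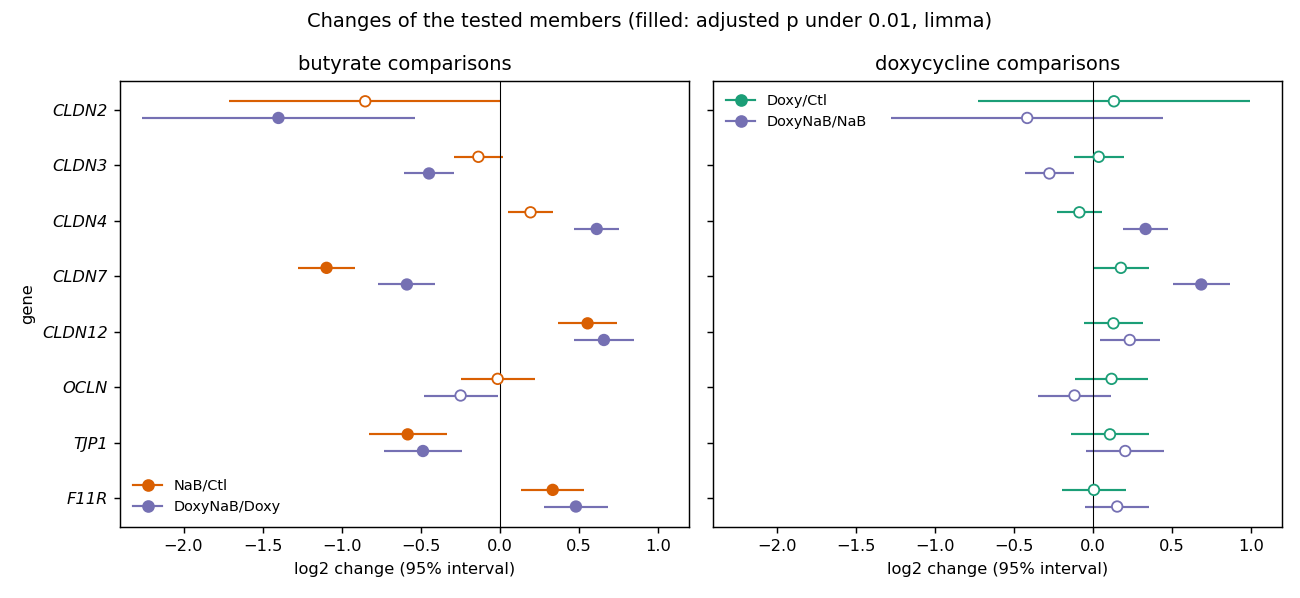
Log2 changes of the 8 tested genes with 95% intervals from limma, in the butyrate comparisons (left) and the doxycycline comparisons (right); filled points passed at an adjusted p under 0.01. CLDN7 changed by -1.10 in NaB/Ctl and by 0.69 in DoxyNaB/NaB, and no gene passed in Doxy/Ctl.

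The difference between the 2 butyrate responses, (NaB/Ctl) minus (DoxyNaB/Doxy), passed for none of the 8 genes, against 1.24% of all reporters. CLDN3, CLDN4 and CLDN7 had an unadjusted p under 0.01 by the methods' paired test. Of the 18983 reporters, 635 had that with a positive difference and 208 with a negative one. CLDN7 had a difference of -0.51 (SE 0.12, 95% interval -0.76 to -0.25, adjusted p = 0.0315), and the sign was negative in 6 of 6 experiments. CLDN4 had -0.42 (SE 0.09, 95% interval -0.62 to -0.22, adjusted p = 0.0236), also negative in 6 of 6. CLDN3 had 0.31 (SE 0.11, adjusted p = 0.176), positive in 6 of 6. The other members had adjusted p-values of 0.615 to 0.880. For CLDN12 the 95% interval was -0.37 to 0.16 and for F11R -0.43 to 0.14, and values inside these bounds cannot be told from 0 with 6 experiments. Of all reporters that passed this test, 195 were positive and 41 negative (82.6% positive), while median scaling left 1 positive and 8 negative calls (11.1%); with quantile normalization 75.1% were positive and with normexp correction 86.0%. In DoxyNaB/NaB 117 reporters passed higher and 355 lower (24.8% higher), and 19 and 27 after median scaling (41.3%).

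**Figure D3:**
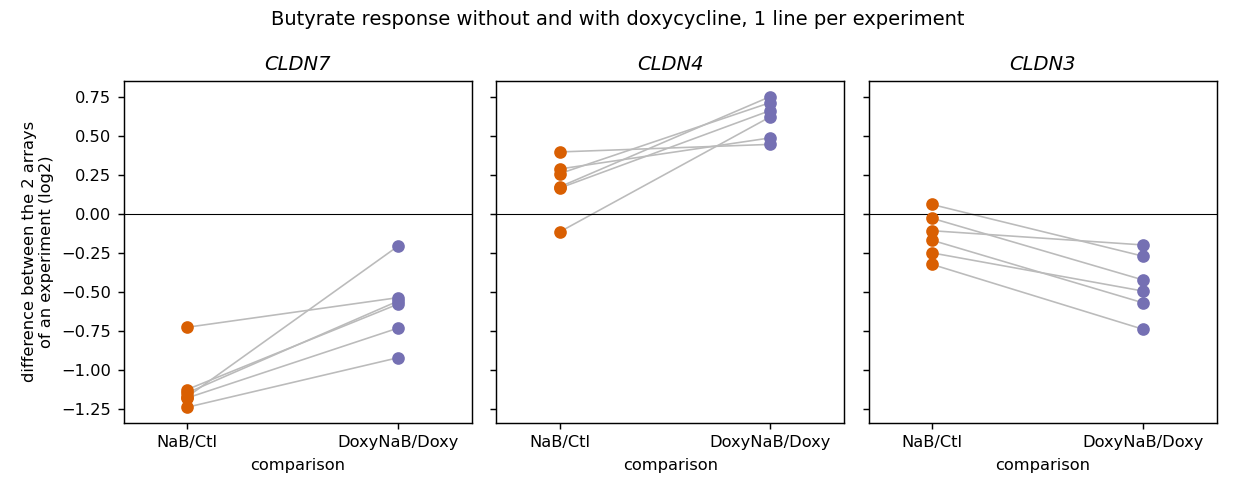
Butyrate response (log2 difference between the butyrate array and its partner in an experiment) without doxycycline (NaB/Ctl) and with it (DoxyNaB/Doxy) for CLDN7, CLDN4 and CLDN3; each line is 1 of 6 experiments. The CLDN7 and CLDN4 lines all go up and the CLDN3 lines all go down, with mean differences of -0.51, -0.42 and 0.31 in (NaB/Ctl) minus (DoxyNaB/Doxy).

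The NaB/Ctl and DoxyNaB/NaB comparisons share the NaB arrays, as DoxyNaB/NaB and DoxyNaB/Doxy share the DoxyNaB arrays, so their values are given side by side and not related to each other. For CLDN7 the 4 group means were 3.46 ± 0.23 in Ctl, 2.37 ± 0.15 in NaB, 3.64 ± 0.14 in Doxy and 3.06 ± 0.24 in DoxyNaB (SD, n = 6). For CLDN4 they were 1.74 ± 0.12, 1.93 ± 0.19, 1.65 ± 0.12 and 2.27 ± 0.15 (SD, n = 6) in the same order. The means of both genes were higher in DoxyNaB than in NaB. Beside Doxy, the DoxyNaB mean was lower for CLDN7 and higher for CLDN4.

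Promoters were read for the members because DN-Tcf4 acts on Tcf sites, and because claudin promoters are known targets of the SNAI and ZEB repressors. In the 250 bases before each RefSeq start (GRCh38.p14), which 8 of the 9 genes have in 14 promoters, 3 motifs of 6 bases were searched on both strands: the Tcf cores CTTTGA and CTTTGT and the E-box CACCTG. Of 35116 promoters in the RefSeq table, 11.2% held CTTTGA, 13.7% CTTTGT and 17.5% CACCTG. Among the members, CTTTGA stood in a CLDN4 and a TJP1 promoter, CTTTGT in the CLDN4 promoter, and CACCTG in CLDN7, OCLN and TJP1 promoters; the gene without an entry here was F11R. The CLDN4 promoter (chr7:73830746-73830995, plus strand) is shown because it held both Tcf cores, in capitals, 204 and 125 bases before the start.
CLDN4 promoter: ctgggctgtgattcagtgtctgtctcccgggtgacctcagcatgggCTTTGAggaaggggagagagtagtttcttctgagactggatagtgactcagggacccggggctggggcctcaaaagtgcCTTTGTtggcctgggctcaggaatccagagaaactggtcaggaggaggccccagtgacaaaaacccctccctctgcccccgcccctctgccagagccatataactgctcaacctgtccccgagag
One of the 2 CLDN7 promoters held CACCTG or its reverse complement 4 times, 174, 135, 20 and 9 bases before the start. The last 30 bases before that start (chr17:7262479-7262508, minus strand) are shown with the nearer pair in capitals.
CLDN7 promoter, start-proximal end: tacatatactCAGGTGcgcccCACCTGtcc
A match describes these letters only; binding was not measured here.

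Among other junction genes, chosen by name with earlier results of these data known, claudins outside the 9 were mostly dim: of 15 on the array, 4 were tested. CLDN6, CLDN15, CLDN19 and CLDN23 all passed higher in NaB/Ctl, and 3 of the 4 did in DoxyNaB/Doxy, beside 40.0% and 37.3% of all reporters. CLDN6, a claudin of embryonic epithelia, was well above background on 1 Ctl, 2 Doxy, 6 NaB and 6 DoxyNaB arrays, so it entered the tests only through the treatments in which it was high. Its differences of 3.59 in NaB/Ctl and 3.17 in DoxyNaB/Doxy are descriptions, and their size rests on a baseline mostly not above background.

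Of 18 other tight junction genes, 14 were tested; 5 rose and 6 fell in NaB/Ctl, where 40.0% of all reporters passed higher and 28.2% lower, with a median of -0.24 beside 0.17. CXADR, an adhesion receptor of the junction, rose by 1.55 (adjusted p = 8.85e-09). MARVELD2, which encodes the tricellular junction protein tricellulin, fell by 1.78 (adjusted p = 7.96e-14), and CSDA (now YBX3), a ZO-1-associated nucleic acid-binding protein, fell by 1.78 (adjusted p = 6.99e-13). In DoxyNaB/Doxy again 5 rose and 6 fell, beside 37.3% and 29.7% of all reporters. AMOTL2, an angiomotin-like scaffold, alone of the 44 tested genes of these lists passed for the difference between butyrate responses, for which 1.24% of all reporters passed, at 1.31 (SE 0.10, adjusted p = 3.36e-07): its changes were -0.37 in NaB/Ctl, -1.67 in DoxyNaB/Doxy and -1.27 in DoxyNaB/NaB (adjusted p = 1.87e-09), all past the threshold, while CLDN7 and CLDN4 rose in the last comparison.

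Of the 11 tested polarity genes, whose complexes place the junction, 6 rose and 1 fell in NaB/Ctl, with a median of 0.37, again beside 40.0% and 28.2% of all reporters and their median of 0.17; PARD6A rose by 1.52 (adjusted p = 9.10e-11). Of 15 adherens junction and desmosome genes 6 rose and 7 fell, with a median of 0.22, beside the same shares and median. CDH1, the gene of E-cadherin, rose by 0.99 (adjusted p = 1.04e-07), and the desmosomal cadherin gene DSC2 gave -1.97 (adjusted p = 3.85e-06). DSC2 was well above background on 6 Ctl, 4 NaB, 6 Doxy and 5 DoxyNaB arrays. It thus entered the tests only through the treatments without butyrate, where it was high. Its value is a description, although DSC2 is counted among the 7 genes that fell.

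**Figure D4:**
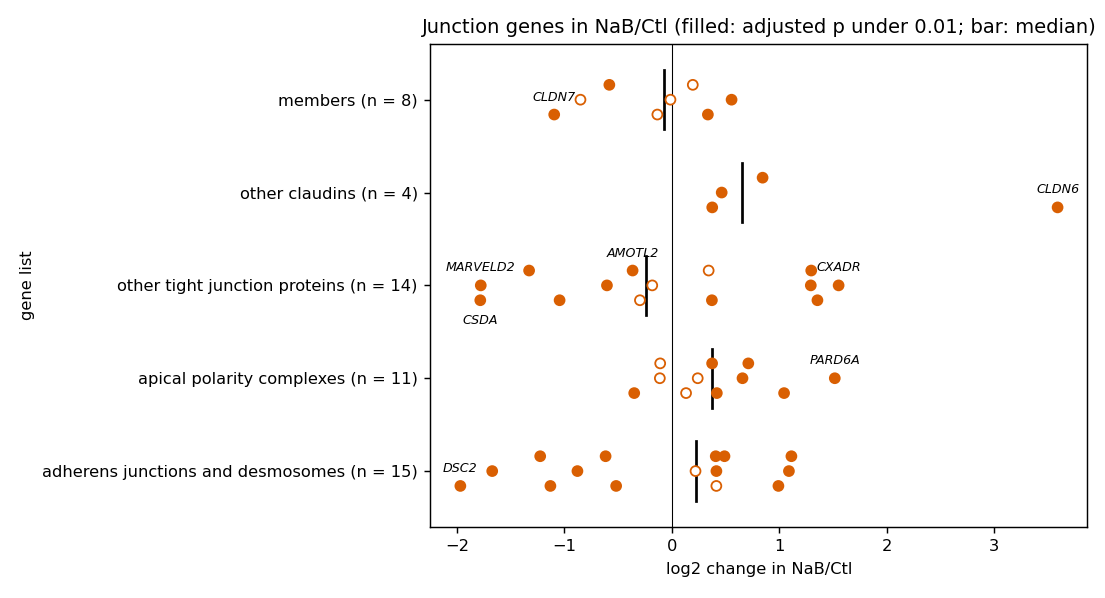
Log2 change in NaB/Ctl (horizontal axis) of the tested members and of the tested genes of 4 other junction lists; each point is 1 gene, filled where the adjusted p was under 0.01, and black bars are medians. The member median is -0.07, and the point farthest right, at 3.59, is CLDN6, which was well above background on 1 Ctl array.

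Of 9 markers of other cell types, 3 were tested. In NaB/Ctl COL1A1 (1.09) passed higher, as 40.0% of all reporters did, and CDH5 did not pass (0.45, adjusted p = 0.180). HBB was well above background on 3 Ctl, 6 NaB, 4 Doxy and 5 DoxyNaB arrays. It entered the tests only through NaB, where it was high, so its NaB/Ctl value of 1.98 is a description. PTPRC, CD3E, COL1A2, PECAM1, MYH11 and ALB were too dim to be tested. Averaged over the 9 genes, the level of an array ran from -5.88 to -3.44 in Ctl and from -5.22 to -1.95 in NaB. It ran from -5.65 to -3.38 in Doxy and from -5.26 to -1.32 in DoxyNaB. COL1A1 was well above background on all 24 arrays and CDH5 on 22, so the 9 genes were not all dim. Since all arrays were of 1 clone, the genes too dim to be tested show what dim reporters read here. Those too dim to be tested were well above background on 10 (COL1A2) to 16 (MYH11) of the 24 arrays, by the best reporter of each. CLDN1 was so on 12 arrays and CLDN2 on 16. How far such signal enters the changes of CLDN1 and CLDN2 was not tested.

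Across the 24 arrays, with each experiment's mean subtracted, CLDN12 and CLDN4 went together most closely among the members (Pearson r = 0.889), then CLDN7 and TJP1 (0.827) and CLDN2 and CLDN3 (0.798). CLDN3 and F11R ran opposite (-0.827), and CLDN4 and CLDN7 gave -0.453. These values describe arrays that share treatments, and 6 arrays per treatment stand behind each. The transcripts most like each member by the same measure were C11orf68 (0.978) and PLEK2 (0.967) for CLDN7, IL11 (0.965) and RNASE1 (0.944) for CLDN4, ETV6 (0.934) and MGC11082 (0.915) for CLDN3, TRAPPC2 (0.960) and LOC100131785 (0.953) for CLDN12, PDE4A (0.961) and SP140 (0.948) for CLDN2, SPG7 (0.972) and RABGAP1 (0.964) for F11R and GOLPH3 (0.955) and TMED5 (0.937) for TJP1. OCLN had the least close partners, TMEM67 (0.870) and SLC39A6 (0.835).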

How the data were processed

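Total RNA behind the 24 arrays was hybridised by the authors to 1-colour Agilent whole human genome arrays, and spot intensities were extracted with Agilent Feature Extraction 9.5.3.1 (from the file headers; reporters annotated on NCBI36). The deposited processed signal is an intensity after the authors' background subtraction, with a flag for spots well above background. From these, control spots and outlier-flagged spots were left out, each signal was divided by the array's 75th percentile over the remaining spots, log2 was taken and spots of a reporter were averaged. limma 3.58.1 (R 4.3.3) fitted treatment and experiment on all 24 arrays, with Benjamini-Hochberg adjustment over 18983 reporters. Arrays were blocked by experiment, since the study's test was a paired one and the labels number the experiments. Deviations of same-numbered arrays from their treatment means correlated between -0.22 and 0.85 over 36 pairs, and replicates of a treatment between 0.881 and 0.993. The -0.22 was NaB with DoxyNaB in experiment 3, a pair that gave 0.73 to 0.85 in the other experiments. Experiment 3 also gave the largest DoxyNaB/NaB differences of CLDN7 (1.07) and CLDN4 (0.56). The study treats the experiments as biological replicates, while the labels do not mention separate cultures; if they shared one, p-values measure only the spread between these arrays.

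The members and the gene lists were chosen with earlier results of these data known. The text names every member, TCF7L2 and AXIN2, the 3 list genes that rose and the 3 that fell most in NaB/Ctl over the 4 junction lists, those that passed for the difference between responses, and the 2 transcripts most like each member; CLDN15, CLDN19, CLDN23, CDH1 and the cell type markers stand beside counts. Promoters came from the RefSeq table of GRCh38.p14, of which the 250 bases before the start were searched. All 9 members matched a RefSeq symbol and accession. Alternatives covered background correction, scaling, the filter, the block, the arrays fitted, the test, the threshold, the reporter of a gene, each experiment left out, and single scans. The number of arrays limits the precision. Sequence tables and figures used Python 3.11.15, pandas 2.3.3, numpy 2.4.6 and matplotlib 3.10.9.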

Additional observations from a re-analysis of the deposited data

Results flagged for a closer look

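Among 40 sets of 6 levels (10 reporters in 4 treatments), 8 held 1 array that stood apart from the other 5 by Dixon's criterion for 6 values; chance alone picks about 1 set in 20. All 8 values lay on the 4 arrays of experiment 1, whose arrays with butyrate and without lay on separate slides.

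CLDN4 in DoxyNaB was high there, at 2.54 against 2.27 in the nearest array. CLDN12 was low, at -1.53 in Doxy (nearest -0.99) and -0.85 in DoxyNaB (nearest -0.33). OCLN was low, at -2.58 in Ctl (nearest -1.47) and -2.60 in Doxy (nearest -1.31). TJP1 was low, at 0.53 in Ctl (nearest 1.26) and 0.058 in NaB (nearest 0.70). F11R was high in Ctl, at 2.84 (nearest 2.53). Without experiment 1, 0 of the calls of CLDN12 and TJP1 in NaB/Ctl and DoxyNaB/Doxy were lost, the F11R call in NaB/Ctl was, as was the CLDN4 call in DoxyNaB/NaB (0.31, adjusted p = 0.0386), and OCLN passed in DoxyNaB/Doxy.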

How the results depend on the processing

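The alternatives were planned for all results except the percentile over reporters, the single scans and the fit without 2 arrays of high negative controls, which were added after seeing the data. The counts were 4 members passing in NaB/Ctl, 7 in DoxyNaB/Doxy, 2 in DoxyNaB/NaB and 0 for the difference between responses. The 7 hold CLDN2, which entered the tests only through Doxy, where it was high, and is described only. Of all reporters, 40.0% passed higher and 28.2% lower in NaB/Ctl, and 37.3% and 29.7% in DoxyNaB/Doxy. In DoxyNaB/NaB 0.616% and 1.87% did, and 1.24% passed for the difference. The counts changed as follows. In NaB/Ctl, 2 passed with normexp correction, 2 in experiments 5 and 6 only, 1 with a fold over 2, 6 with quantile normalization or without the 2 arrays, 5 at an adjusted p under 0.05, and 5 with median scaling (0 higher and 5 lower: CLDN2, CLDN3, CLDN7, OCLN and TJP1). Of the 18983 reporters, 2502 passed higher and 8599 lower with median scaling, beside 7600 and 5351 in the main fit. Normexp correction gave 4285 and 4011, quantile normalization 5878 and 5875, and experiments 5 and 6 alone 5577 and 4149. The fit without the 2 arrays gave 7776 and 5550, and 31.7% passed with a fold over 2. In DoxyNaB/Doxy, 3 passed in experiments 2 to 4 only, 4, with CLDN2 among them, in experiments 5 and 6 only and 1 with a fold over 2. The last was CLDN2, described only, and 30.6% of all reporters passed that rule. In the main fit 7076 of all reporters passed higher and 5641 lower. In experiments 2 to 4 these counts were 5272 and 4250, and in experiments 5 and 6 they were 5253 and 4542. In DoxyNaB/NaB, 1 passed with no filter, no replicate block, the percentile over reporters or without the 2 arrays, and 0 with normexp correction, median scaling (after a floor of 5), only the arrays compared, the adjusted methods' t-test, either scan group or a fold over 2. Calls over all reporters also became fewer under most of these settings. From 117 higher and 355 lower in the main fit they went to 24 and 86 with normexp correction and 19 and 27 with median scaling. Only the arrays compared gave 42 and 89, and the adjusted methods' t-test 12 and 13. Experiments 2 to 4 gave 15 and 24, and experiments 5 and 6 gave 2 and 1. The fit without the 2 arrays gave 138 and 343. For the difference, 2 passed at an adjusted p under 0.05 and 3 by the unadjusted methods' t-test. By the latter 635 of the 18983 reporters passed with a positive sign and 208 with a negative one. Leaving out 1 experiment gave 3 to 4, 6 to 7, 1 to 2 and 0 members. Dropping the replicate block left 3, 5, 1 and 0. Over all reporters it left 5884 higher and 4384 lower in NaB/Ctl and 5464 and 4675 in DoxyNaB/Doxy. In DoxyNaB/NaB it left 43 and 135, and for the difference 71 and 14.

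Signs turned as follows (log2 changes). With normexp correction, CLDN2 gave -0.13 in Doxy/Ctl, 0.14 in DoxyNaB/Doxy, 0.37 in DoxyNaB/NaB and -0.51 for the difference, OCLN gave -0.0052, 0.020, 0.11 and -0.11, and F11R 0.030 for the difference. With median scaling, CLDN4 gave -0.54, CLDN12 -0.18 and F11R -0.40 in NaB/Ctl, F11R -0.058 in DoxyNaB/Doxy, and CLDN3 -0.050 and F11R -0.080 in Doxy/Ctl. Quantile normalization gave CLDN2 -0.074 in Doxy/Ctl. The percentile over reporters gave F11R -0.0061 in Doxy/Ctl. In experiments 2 to 4, Doxy/Ctl changes were -0.17 for CLDN2, -0.029 for CLDN3, -0.016 for CLDN12, -0.016 for F11R and -0.082 for TJP1. In experiments 5 and 6, CLDN4 gave 0.022 in Doxy/Ctl, CLDN12 -0.055 in DoxyNaB/NaB and 0.45 for the difference, and TJP1 0.037 for the difference. OCLN in NaB/Ctl gave 0.33 as the mean of its reporters and 0.040 without the 2 arrays. Leaving out 1 experiment gave OCLN -0.085 to 0.044 in NaB/Ctl, CLDN2 -0.0076 to 0.29, TJP1 -0.010 to 0.17 and F11R -0.022 to 0.041 in Doxy/Ctl, and TJP1 -0.15 to 0.0015 for the difference. The causes were not tested. The difference could not be refitted on only the arrays compared, since it needs all 24.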
